A study of Rattus norvegicus with 42 samples.

Results

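GR occupancy of rat liver chromatin was compared between constant corticosterone infusion and the nadir of a corticosterone pulse, over all 3981 GR regions of the study's table and in the 4 libraries of those groups. No region was left out, so the regions described are all 3981 of 3981. Every rat was an adrenalectomised male Sprague Dawley, and each ChIP-Seq library pooled liver of 6 rats. In the pulsatile group corticosterone (CORT), complexed to a cyclodextrin, ran into the jugular vein for 20 min of each hour at 1 ml/h, and NADIR_180 liver was taken at 180 min of a 3 h infusion, when the pump had been off since the last pulse. In the constant group the infusion ran at 0.333 ml/h, after a start at 1 ml/h for 10 min by the methods. CONS_180 liver was taken at the same 180 min. PEAK_140 was the end of the last pulse at 140 min, CONS_140 the constant infusion at that time, and VEH the vehicle given in pulses and sampled once at 140 and once at 180 min. Each group had 2 GR libraries, the 10 libraries held between 2051977 and 6715803 tags, and p-values measure only the spread between such pools. Depth was uneven in the contrast: CONS_180 held 4877662 and 4495077 tags and NADIR_180 3026250 and 2556380. PEAK_140 held 2568317 and 2051977 and VEH 3236498 and 3902296.

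GR is a hormone-activated transcription factor that waits in the cytoplasm in a chaperone complex, enters the nucleus when it binds CORT, and reads a palindromic DNA element made of inverted hexamer arms 3 b apart. It leaves chromatin when free hormone falls and is loaded again with the next pulse. In liver it is known for driving gluconeogenesis, amino acid breakdown and lipid handling from elements that often lie far from the start of the gene, beside the hepatocyte factors HNF4A, CEBPs and FOXAs. RNA of the same experiment carried the hepatocyte label: the 6 hepatocyte markers (albumin among them) summed to between 87763 and 137575 CPM in the 12 RNA libraries, against 155 to 303 CPM for 5 Kupffer cell markers and 7.75 to 14.6 CPM for 4 cholangiocyte markers. Fewer cells of a type and less binding or RNA per cell cannot be told apart in pooled liver.

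The DNA words through which GR is known to bind are shown here for some of the sites higher in CONS_180. Of 70 named sites that were higher in CONS_180, 23 were in the rows held of the study's motif search over the rn6 regions. A word was found at 15, and 9 of those sites are shown. The 9 are a selection, and the others are named after the words. Each word is the copy at its site closest to AGAACA, any 3 bases and TGT, read on either strand. Positions are given from the transcription start, with a minus sign upstream. Capitals mark the left arm of 6 b and the opening 3 b of the right arm, and lower case marks the spacer of 3 b.
Fkbp5 (GR chaperone), -1338 b: AGAACAagcTGT
Mt2A (metallothionein), -1263 b: AGAACAggaTGT
Angptl4 (lipase inhibitor), 6281 b: AGAACAaaaTGT
Per1 (clock repressor), -1106 b: GGAACAggaTGT
Cdkn1a (cell cycle inhibitor), 923 b: GGAACAtacTGT
Arntl (clock activator), 30802 b: GGAACAgtcTGT
Insig1 (sterol regulator), -22706 b: AGAACTgtcTGT
Zfp36 (mRNA decay factor), 2761 b: GGGACAggaTGT
Tsc22d3 (GILZ, inhibitor of inflammatory signalling), 36258 b: GGTACAgaaTGT
Fkbp5, Mt2A and Angptl4 matched all 9 of the fixed letters, Per1, Cdkn1a, Arntl and Insig1 matched 8, and Zfp36 and Tsc22d3 matched 7. Of the words not shown, that at Dusp1 matched 8 and those at Got1, Rell1, Il6r, Ppara and Foxa1 matched 7. The words shown thus lean to the closer matches.

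GR enrichment was higher under constant infusion than at the pulse nadir at 1976 of the 3981 regions (limma across the 10 GR libraries, Benjamini-Hochberg adjusted p below 0.05 over all regions and more than 1.5-fold), which is 49.6% of the regions tested. No region was lower (0%), and at an unadjusted p below 0.05 the count was 2349 higher and 1 lower. By the methods, the regions were merged from the peak lists of the groups. A NADIR_180 peak was marked at 72 of them. Peaks in both PEAK_140 and CONS_180 but not NADIR_180 were marked at 1998, and in CONS_180 without the other 2 at 418. A set with so few nadir peaks left little room for lower regions, so the 2 counts are a description. The median log2 difference, CONS_180 minus NADIR_180, was 2.49 over all regions and 3.38 over the called ones, where it ran from 0.85 to 6.61. At the edge of the call, the 5 regions just inside differed by 1.87 to 3.52 and the 5 just outside by 1.76 to 2.85.

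These counts depended on how libraries were scaled to each other. With each library centred on its own median over all regions there were 0 higher and 0 lower regions (725 at an unadjusted p below 0.05), with quantile normalization 95 higher and 74 lower, and with centring on the 116 regions that held a VEH peak 0 and 0 (228 at an unadjusted p below 0.05). Centring moved the median difference from 2.49 to -0.39, so the differences below stand against that median, and at the sites where the comparison turns on it the difference relative to the median of all regions is given. Without the second NADIR_180 library 1235 regions were higher, without the first CONS_180 library 948 and without the second 1052. The GR library numbers in the labels ran from 1799 to 1805 for both pulsatile CORT groups and from 1992 to 2011 for vehicle and constant CORT; infusion pattern and library series cannot be told apart.

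**Figure D1:**
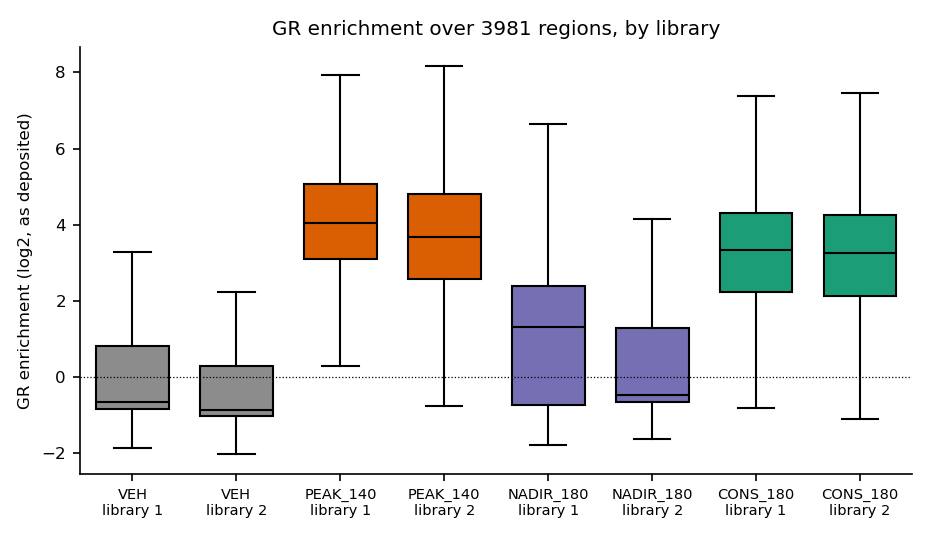
GR enrichment (log2, as deposited) over the 3981 regions in each of 8 libraries. Boxes span the quartiles with the median as a line, whiskers reach the last value within 1.5 box heights, and the dotted line marks 0. Medians were 3.34 and 3.27 in the CONS_180 libraries and 1.33 and -0.48 in the NADIR_180 libraries.

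Many regions had values below 0 at the nadir. Such values are called the floor here, since at this depth they do not tell an empty region from one with few tags over input. The floor held 34.4% of regions in the first NADIR_180 library and 64.9% in the second, 5.75% and 6.43% in the CONS_180 libraries, and 64.1% and 74.3% in the VEH libraries. The second NADIR_180 library thus had about the floor share of vehicle and the first a much smaller one. In the PEAK_140 libraries the floor held 6.68% and 11.5%. The CONS_180 libraries held more tags than the NADIR_180 ones, and the part of depth in these shares was not tested. Of the 1976 called regions, 713 were at the floor in both NADIR_180 libraries, 825 in 1 of them and 438 in neither, and none was at the floor in a CONS_180 library. Their median differences were 3.90, 3.41 and 2.60. Where the nadir is at the floor the difference is a fitted value that depends on how the authors treated regions with few or no tags, and it is not a bound on the fold. The SE and p-value there rest on the same floor values, so they need not measure a spread between pools. Across all regions both CONS_180 libraries were above both NADIR_180 libraries at 3106 (78%), and all 1976 called regions were among them.

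Of the 1976 regions higher under constant infusion, 89.3% carried a PEAK_140 peak, beside 80.6% of all regions. Such a peak, called without any of the 4 libraries compared, was marked at 3209 regions, and 1765 of them (55.0%) were higher in CONS_180, with a median difference of 2.61. Of the 772 without it 211 (27.3%) were higher. Of the 1998 regions with a peak in both PEAK_140 and CONS_180 but not NADIR_180, 1446 (72.4%) were higher. Of the 1191 with a peak in PEAK_140 alone of the 3 groups, 316 (26.5%) were higher. Of the 418 with a peak in CONS_180 alone of the 3, 157 (37.6%) were higher. The CONS_180 mark comes from the same libraries as the difference, so shares by that mark are a description. Ordered by their mean at PEAK_140 and cut into 5 equal groups, the regions were called at 17.2%, 32%, 47.9%, 64.8% and 86.3% from the lowest to the highest group. At the called regions the median of CONS_180 minus PEAK_140 was -0.63 (quartiles -1.01 and -0.22). NADIR_180 minus VEH had a median of 0.90 there (quartiles 0.22 and 1.58). The call itself used CONS_180 and NADIR_180 values, so both medians depend on that choice of regions and are a description. Over all regions, library medians were 3.34 and 3.27 for CONS_180, below 4.04 and 3.69 for PEAK_140. Both contrasts also cross the library series given above. The value of 0.90 rests on the first NADIR_180 library. Medians over the called regions were 0.72 and -0.47 in NADIR_180 and -0.66 and -0.86 in VEH. The second nadir library was thus at the floor with vehicle.

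**Figure D2:**
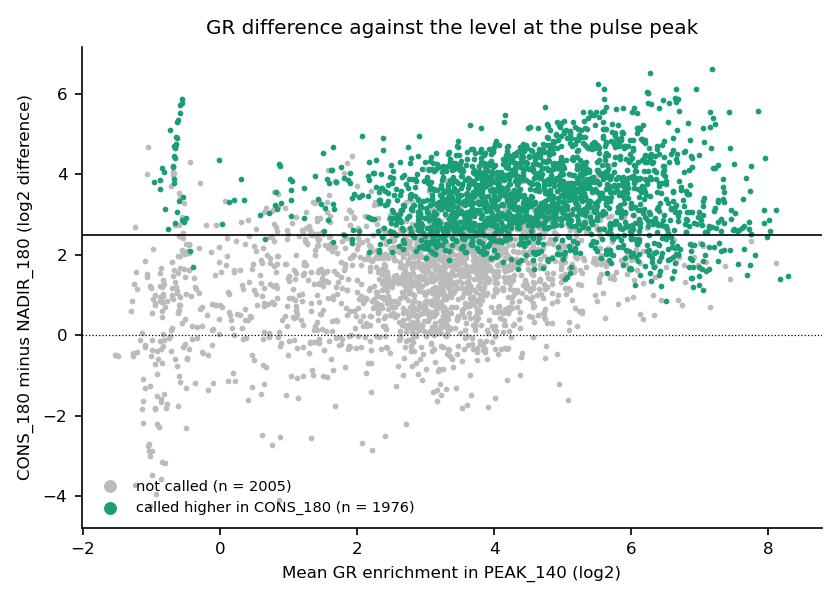
Log2 difference in GR enrichment, CONS_180 minus NADIR_180, against the mean log2 level at PEAK_140 for the 3981 regions. Green points are the 1976 regions called higher in CONS_180, grey points the other 2005; the solid line is the median of 2.49 and the dotted line is 0. Called regions make up more of the cloud towards high PEAK_140 levels, and a strip of called regions stands at PEAK_140 levels below 0.

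By position, 1000 of 1918 intergenic regions (52.1%) and 801 of 1534 intronic regions (52.2%) were called, against 93 of 333 regions at promoters (27.9%). The median difference was 2.58 in intergenic regions, 2.51 in introns and 1.94 at promoters, beside 2.49 over all regions. The called share was 28.9% within 1 kb of a transcription start and 54.9% between 10 and 50 kb. Promoter regions had a CONS_180 level near that of the rest (medians 3.26 and 3.27) a higher one in the first NADIR_180 library (1.88 against 1.33 over all regions) and in the first VEH library (0.13 against -0.65), and one close to that of all regions in the second NADIR_180 library (-0.44 against -0.48). The relation to distance is a description and was not tested.

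The 10 called regions with the greatest difference, in each of which both CONS_180 libraries were above both NADIR_180 libraries, lay beside genes of several kinds. The greatest was in intron 7 of Nedd4l (chr18:60595151-60595776, rn6), an E3 ubiquitin ligase that removes the epithelial sodium channel from the cell surface. Its log2 enrichment was 6.06 and 6.52 in CONS_180, -0.41 and -0.24 in NADIR_180, 7.14 and 7.21 in PEAK_140 and -0.49 and -0.69 in VEH. The groups did not overlap, the nadir was at the floor with vehicle, and the difference was 6.61 ± 0.45 (SE, n = 2 and 2; limma, adjusted p = 0.000579), which is 4.13 above the median of all regions.

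Igf1, the liver-derived growth factor, had such a site in intron 2 (chr7:28451666-28452291), with 6.14 and 5.25 in CONS_180 and -0.51 and -0.33 in NADIR_180. The difference was 6.11 ± 0.52 (limma, adjusted p = 0.000579). Insig1, which holds the sterol sensor SCAP in the endoplasmic reticulum and so restrains lipid synthesis, had 2 sites among the 10. At the one at -22706 b (chr4:319284-319909), whose word is printed above, CONS_180 gave 5.58 and 6.09 and NADIR_180 -0.37 and -0.19, a difference of 6.11 ± 0.55 (limma, adjusted p = 0.000602). At the other, at -13577 b, it was 6.02. Tat, tyrosine aminotransferase and a textbook glucocorticoid target of liver, had its site at -2488 b (chr19:41688402-41689032). CONS_180 values there were 5.72 and 5.62, NADIR_180 values -0.46 and -0.29, and the difference was 6.05 ± 0.58 (limma, adjusted p = 0.000717). All 5 of these sites were at the floor in both nadir libraries. The other 5 of the 10, nearest to Tpm4 (tropomyosin), Klf17, Cd180, B630019K06Rik and AABR07010587.1, differed by 5.90 to 6.50.

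**Figure D3:**
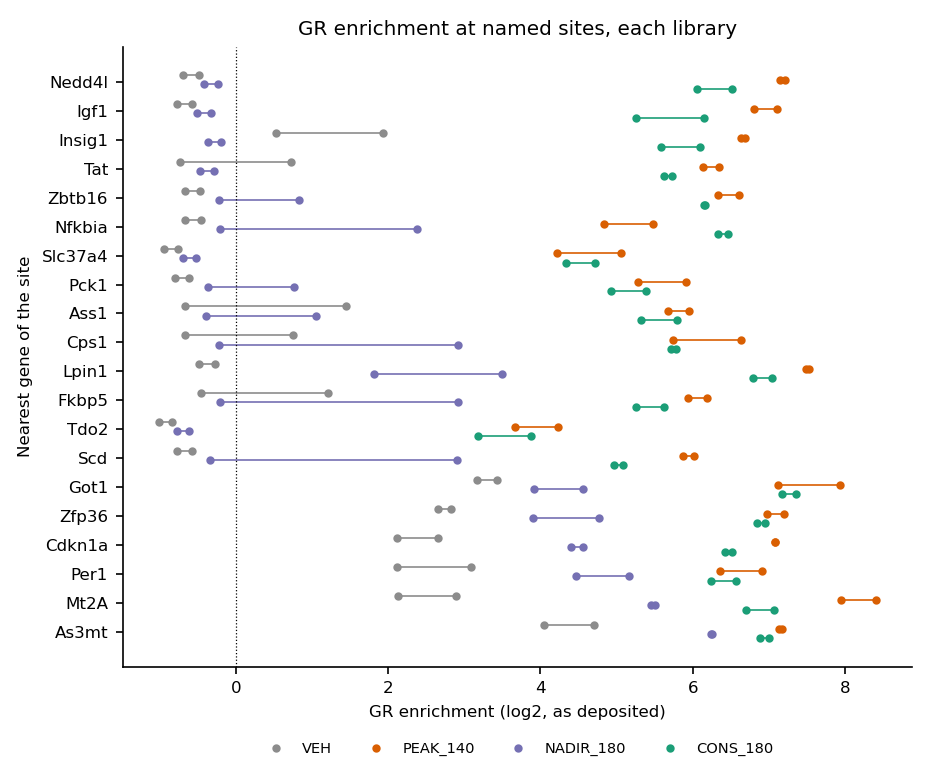
GR enrichment (log2, as deposited) at 20 named sites, labelled by nearest gene. Each point is a library, joined within its group: VEH grey, PEAK_140 orange, NADIR_180 purple, CONS_180 green; the dotted line marks 0. From Nedd4l down to Scd at least 1 nadir library is below 0 at every gene but Lpin1, while at Got1, Zfp36, Cdkn1a, Per1, Mt2A and As3mt the nadir values lie between 3.90 and 6.25.

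Sites picked for a high CONS_180 or NADIR_180 level had values above the floor at the nadir. Nadir medians were 0.52 and -0.63 in the lowest of the 5 groups by PEAK_140 level. In the highest group they were 2.72 and 1.11. The 5 called regions with the highest CONS_180 level had NADIR_180 values from 3.90 to 6.58 and differed by 1.47 to 3.12. The highest of them (chr1:124775856-124776481, an intron of AABR07004100.2) had 7.92 and 7.97 in CONS_180, 6.58 and 6.37 in NADIR_180, 8.28 and 8.31 in PEAK_140 and 2.92 and 3.33 in VEH. Its groups did not overlap and its difference of 1.47 ± 0.22 (limma, adjusted p = 0.00178) was 1.02 below the median of all regions. At the region with the highest nadir level (chr1:11910690-11911386, nearest to a copy of RF00002, a multicopy ribosomal RNA family whose reads may be shared between copies) NADIR_180 gave 7.16 and 6.62, CONS_180 7.12 and 7.09 and VEH 5.98 and 6.47. There the groups overlapped and the difference was 0.21 ± 0.56 (limma, adjusted p = 0.755). The promoter region of As3mt, the arsenite methyltransferase, had 6.25 and 6.24 at the nadir, 6.99 and 6.88 under constant infusion and 4.05 and 4.70 in VEH, a difference of 0.69 ± 0.28 (limma, adjusted p = 0.0676).

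Genes that answer GR in most tissues form the list of classical targets. Of the 43 regions nearest to 13 of the 16 classical targets, 36 (83.7%) were higher in CONS_180, with a median difference of 3.36 beside 2.49 over all regions. Without the second NADIR_180 library the count was 24, without the first CONS_180 library 21 and without the second 22. Under quantile normalization it was 6 and with either centring 0. The share was the highest of the 8 lists in the fit as reported, and not in others: under quantile normalization it was 6 of 43 regions against 4 of 24 (16.7%) for lipid genes, and over the regions above 0 in all 4 libraries 76.5% against 80% for anti-inflammatory genes. The lists share genes, so their shares are not independent. Tsc22d3, Dusp1 and Nfkbia are also on the anti-inflammatory list, and Tat on that of amino acid enzymes. Per1 is also a clock gene, and Cdkn1a and Errfi1 are also on the growth list. The difference between lists was not tested. Of the 13 genes, 12 had at least 1 called region; the exception, Sgk1 (a serum and glucocorticoid induced kinase), had 1 region near its start with 3.10 and 2.24 at the nadir and 3.80 and 3.98 under constant infusion, a difference of 1.22 ± 0.80 (limma, adjusted p = 0.224).

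Within the list, sites differed in their nadir level. Fkbp5, the co-chaperone that lowers the hormone affinity of GR, had 5.25 and 5.62 in CONS_180 and 2.92 and -0.21 in NADIR_180 at the site printed above (difference 4.08 ± 0.96, limma, adjusted p = 0.00949). Only the second of its nadir libraries was at the floor. Nfkbia, the inhibitor of NF-kB, had 6.32 and 6.45 against 2.38 and -0.20 in intron 1 (difference 5.30 ± 0.77, limma, adjusted p = 0.00163).

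Per1, Mt2A and Cdkn1a were above the floor in both nadir libraries. At Per1 (chr10:55685632-55686257) CONS_180 gave 6.24 and 6.57, NADIR_180 5.16 and 4.46 and VEH 3.09 and 2.11. At Mt2A (chr19:11309691-11310316) the values were 7.06 and 6.70, 5.51 and 5.45, and 2.90 and 2.13. At Cdkn1a (chr20:6352069-6352694, intron 1) they were 6.51 and 6.42, 4.40 and 4.56, and 2.65 and 2.11. The nadir values lay above the vehicle values, a description from 2 libraries a group in different library series. The paper counted no site as significantly enriched over vehicle at the nadir. Constant infusion lay above the nadir without overlap at all 3. The differences were 1.60 ± 0.44, 1.40 ± 0.34 and 1.99 ± 0.31 (limma, adjusted p = 0.0174, 0.0116 and 0.00190), which are 0.89, 1.09 and 0.50 below the median of all regions, and their sign turned under both centrings and under quantile normalization.

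**Figure D4:**
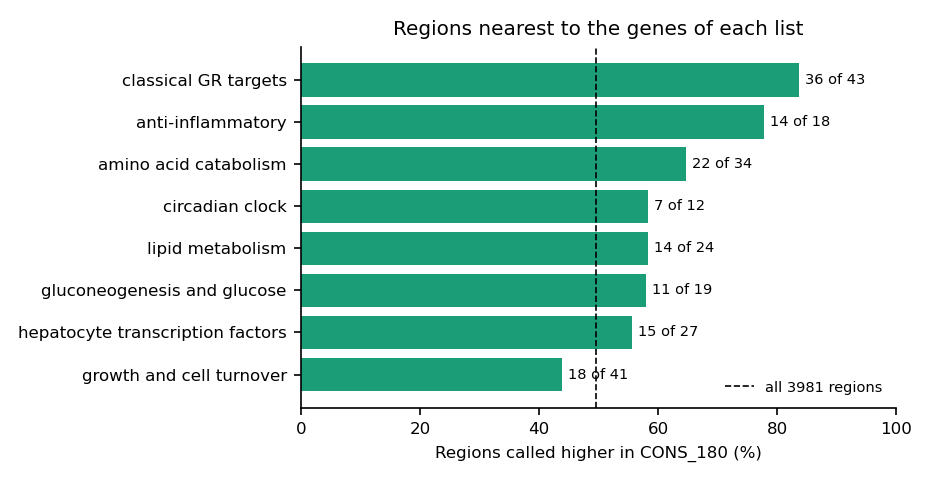
Share of regions called higher in CONS_180 (percent) among the regions nearest to the genes of each of 8 lists, with the count beside each bar. The dashed line is the share over all 3981 regions, 49.6%. The list for growth and cell turnover lies below the line at 43.9%, the others above it, and which lists do so changes with the libraries used.

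Among the enzymes that break down amino acids, which feed carbon into gluconeogenesis and nitrogen into urea, 22 of 34 regions (64.7%) at 11 of 12 genes were higher, with a median difference of 2.93. Without the second NADIR_180, the first CONS_180 or the second CONS_180 library the count was 15, 12 or 13. Got1, the cytosolic aspartate aminotransferase, had 7.16 and 7.35 in CONS_180, 4.56 and 3.91 in NADIR_180 and 3.43 and 3.17 in VEH at its promoter (chr1:263269863-263270488), a difference of 3.02 ± 0.36 (limma, adjusted p = 0.000936). At its called site with the greatest difference, Ass1 (argininosuccinate synthase of the urea cycle) differed by 5.22 ± 0.78, with 4 of 8 regions called. At such sites Etnppl differed by 4.75 ± 0.72 (2 of 3 called) and Cps1 (carbamoyl phosphate synthetase) by 4.39 ± 0.95 (3 of 3 called). The start region of Cps1 differed by 2.77. Tdo2 (tryptophan dioxygenase) differed by 4.22 ± 0.61 at its 1 region. Gpt2 had 2 regions and neither was called.

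In the list for glucose, 11 of 19 regions (57.9%) at 6 of 8 genes were higher, with a median of 3.04. Leaving out the same libraries in turn gave 4, 3 and 5, and the share fell below that of all regions without the second NADIR_180 library (4 of 19 against 1235 of 3981) and without the first CONS_180 library (3 of 19, 15.8%, against 23.8%). Slc37a4, the transporter that carries glucose 6-phosphate to the last step of glucose release, had 4.72 and 4.34 in CONS_180 and -0.69 and -0.52 in NADIR_180 at its start site (chr8:48717989-48718614), a difference of 5.14 ± 0.64 (limma, adjusted p = 0.000980). Pck1, the enzyme that commits carbon to gluconeogenesis, had 5 of 6 regions called, the greatest at -5610 b with 5.39 and 4.93 against 0.77 and -0.37 (difference 4.95 ± 0.59). G6pc, the glucose-releasing phosphatase itself, had 3 regions and none was called; at its promoter NADIR_180 gave 3.93 and -0.34 and CONS_180 4.12 and 3.49, so that the groups overlapped. Pdk4 had 4 regions and none was called.

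Of the regions of lipid genes, 14 of 24 (58.3%) at 7 of 12 genes were higher, with a median of 2.78, and leaving out the same libraries in turn gave 9, 7 and 6. Lpin1, a phosphatidate phosphatase and coactivator, kept some GR at the nadir (3.50 and 1.82) and had 6.78 and 7.04 under constant infusion at -14666 b, a difference of 4.25 ± 0.55. Scd, the stearoyl-CoA desaturase, differed by 3.74 ± 0.91 at the end of the gene. Neither Srebf1, the lipogenic regulator, nor Fads1, Fads2, Insig2 or Apob had a called region.

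Clock genes gave 7 of 12 called regions at 6 of 8 genes, with a median of 1.81, below that of all regions. The counts without the same libraries were 3, 2 and 3. Arntl was called in intron 2 (5.08 and 4.88 against 3.64 and 2.29, difference 2.02 ± 0.51), and Nr1d1 and Per3 were not called. In the list for growth and cell turnover 18 of 41 regions (43.9%) at 8 of 10 genes were higher, with a median of 2.99, and without the same libraries 14, 10 and 13. With the replicate number as a block the count was 27 of 41 (65.9%), beside 51.6% of all regions. Egfr had 5 of 8 regions called and Igfbp1, which binds IGF1 in the blood, 1 of 6. For anti-inflammatory genes the count was 14 of 18 at 7 of 8 genes (median 2.66; 6, 7 and 7 without the same libraries), among them Zfp36, with 6.95 and 6.85 against 4.77 and 3.90 (difference 2.56 ± 0.34). For hepatocyte transcription factors it was 15 of 27 at 7 of 8 genes (median 2.61; 10, 7 and 8 without them), with all 3 regions of Ppara and 1 of 2 of Hnf4a called.

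Some genes had several called regions, counted by Ensembl gene, so that symbols shared by many loci, such as RF00001, were split. The 1976 regions had 1519 nearest genes, of which 1214 had 1 called region, 213 had 2, 60 had 3 and 32 had 4 or more. Zbtb16, which encodes the zinc finger repressor PLZF, had all 9 of its regions called, spread over chr8:53055202-53172367 from -25023 to 91439 b. Their differences ran from 3.06 to 5.84. The greatest, in intron 3, had 6.15 and 6.14 in CONS_180 and 0.84 and -0.21 in NADIR_180 (5.84 ± 0.50, limma, adjusted p = 0.000579). Alb, which encodes serum albumin, had 8 of 12 regions called, all upstream, from -43541 to -2923 b, with differences of 2.82 to 4.06. The other genes with most called regions were 3 loci without a gene name, AABR07027072.1 (9 of 11), AABR07054619.1 (8 of 8) and AABR07010589.1 (6 of 6).

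Regions within 250 b of a start, chosen for display after the values were seen, numbered 220, of which 57 were called at 56 genes. That is 25.9%, beside 49.6% of all regions. Among the 57 were those of Gc (vitamin D binding protein, difference 4.44), Fga (fibrinogen alpha chain, 4.44), Agt (angiotensinogen, 4.21) and Orm1 (alpha-1-acid glycoprotein, 1.54). RefSeq (GRCr8) held promoters, 250 b before to 50 b after the start, for 36 of the 56 genes, 44 sequences in all. The palindrome, GNACA, any 3 bases and TGTNC on either strand, was in 4 of these 44 (9.09%), in 4 of the 122 for genes with such regions and none called (3.28%), and in 147 of all 33365 (0.441%). The single arm AGAACA, or TGTTCT on the other strand, was in 22.7%, 14.8% and 20.6%. The match at Orm1 and that at Upp2 (uridine phosphorylase 2, whose RNA is described below) are shown in capitals, the palindrome 130 b before the start of Orm1 (chr5:81788259-81788558, plus strand) and a single arm 111 b before that of Upp2 (chr3:63681576-63681875, plus strand). The builds differ, so these starts need not be those of the rn6 annotation, and a match is a description only.
Orm1: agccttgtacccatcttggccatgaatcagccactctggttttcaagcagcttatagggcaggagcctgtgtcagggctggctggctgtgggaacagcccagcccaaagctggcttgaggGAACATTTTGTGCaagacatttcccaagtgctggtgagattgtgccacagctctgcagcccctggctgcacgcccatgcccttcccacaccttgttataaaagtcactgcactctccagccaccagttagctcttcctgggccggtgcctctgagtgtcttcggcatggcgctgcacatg
Upp2: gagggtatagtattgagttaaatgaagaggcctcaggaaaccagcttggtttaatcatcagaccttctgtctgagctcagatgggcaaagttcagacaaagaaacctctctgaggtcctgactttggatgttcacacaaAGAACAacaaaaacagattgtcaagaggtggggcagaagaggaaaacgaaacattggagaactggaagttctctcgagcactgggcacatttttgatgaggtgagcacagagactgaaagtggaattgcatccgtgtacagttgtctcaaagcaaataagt

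The nearest genes were also measured by pSer2 Pol2 ChIP-Seq, which marks elongating RNA polymerase II over the gene body, in 2 libraries of the same groups. Over all 16568 genes tested 28 were higher in CONS_180 (0.169%) and 1 lower (0.00604%; limma, same thresholds). Of the 951 tested genes with a called GR region within 50 kb, 24 were higher (2.52%) and 1, Cxcl1, a neutrophil chemokine, was lower. Of the 816 genes with GR regions within 50 kb and none called, 0 were higher and 0 lower by limma. Medians of the log2 difference were 0.037, -0.015 and 0.00017 in the called, not called and all genes. The Pol2 counts fell to 0 without either CONS_180 library and in a fit of the 4 libraries alone, and to 5 higher without the first NADIR_180 library. The Pol2 library numbers were 1838 and 1839 for NADIR_180 and 2009 and 2012 for CONS_180, so that series and pattern cannot be told apart here either.

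RNA-Seq compared 3 livers under constant CORT with 3 under pulsatile CORT at 180 min, with 3956379 to 7777219 reads counted per library. By edgeR's quasi-likelihood test, 87 of 14092 genes were higher under constant CORT (0.617%) and 38 lower (0.27%). Among the 906 genes with a called GR region within 50 kb 49 were higher (5.41%) and 3 lower (0.331%), against 10 higher and 8 lower of the 730 with none called. Without the second pulsatile library the count over all genes was 17 higher and 5 lower, without the third 26 and 7, and without the first constant library 33 and 5. When the response over the vehicle of the same pattern was compared instead, 1 gene was higher and 3 lower over all genes. By that comparison 0 of the 906 genes with a called GR region were higher and 1 was lower. Of the 730 with none called, 0 were higher and 0 lower.

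**Figure D5:**
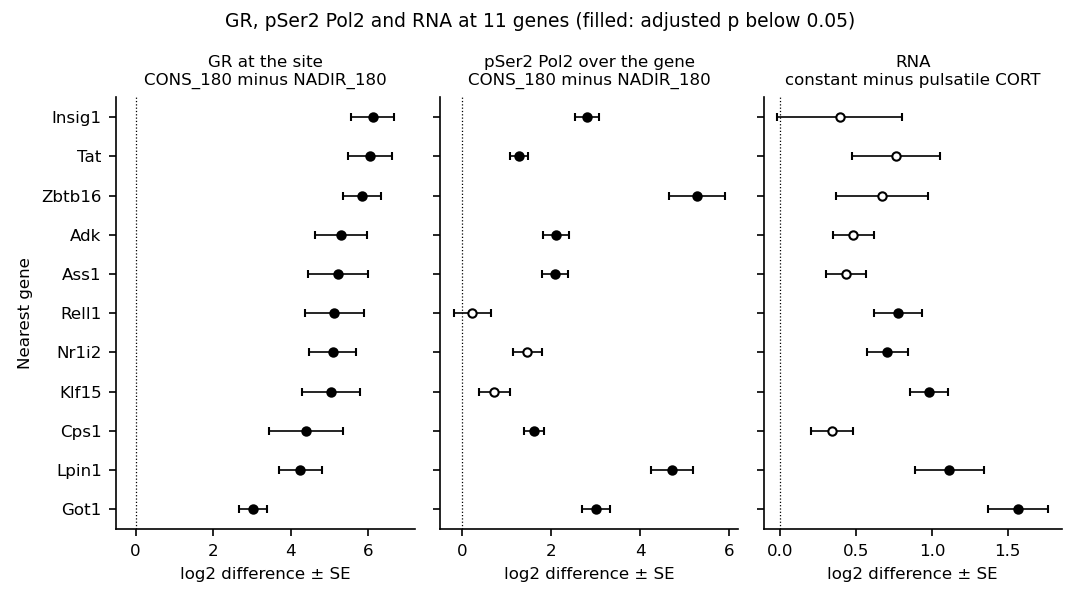
Log2 differences with SE at 11 genes, for GR at the gene's named site (left) and pSer2 Pol2 over the gene (middle), both CONS_180 minus NADIR_180, and for RNA, constant minus pulsatile CORT (right). Filled points have an adjusted p below 0.05. All 11 GR points are filled, 8 of the Pol2 points and 5 of the RNA points (Rell1, Nr1i2, Klf15, Lpin1 and Got1), and Lpin1 and Got1 are filled in all 3; with the replicate block Tat and Cps1 are not filled for Pol2.

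Got1 and Lpin1 were called in all 3 assays, as were AABR07044148.1, Por, Edem1 and Tp53inp1. The Pol2 differences of the latter genes were 4.35, 2.53, 2.48 and 1.98 (log2). Their RNA differences were 2.95, 1.16, 0.78 and 1.07. Pol2 over Got1 was 10.71 and 10.47 in CONS_180 and 7.92 and 7.27 in NADIR_180 (log2), a difference of 3.00 ± 0.31 (limma, adjusted p = 0.00343). Its RNA was 791, 1061 and 976 CPM under constant and 370, 286 and 295 CPM under pulsatile CORT, with vehicle means of 102 and 99.8 CPM, a log2 difference of 1.57 ± 0.20 (edgeR, adjusted p = 0.00148). For Lpin1, Pol2 was 11.3 and 10.9 against 6.57 and 6.22 (difference 4.73 ± 0.47, limma, adjusted p = 0.00328), and RNA was 984, 2152 and 1836 CPM against 820, 637 and 833 CPM (1.11 ± 0.23, edgeR, adjusted p = 0.0296). At Got1 and Lpin1 the groups did not overlap in Pol2 or RNA. Over vehicle the RNA differences of Got1 and Lpin1 were 1.54 and 1.21 (edgeR, adjusted p = 0.058 and 0.134).

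At other genes with strong GR differences Pol2 was called and RNA was not. Insig1 differed by 2.82 ± 0.27 in Pol2 (limma, adjusted p = 0.00289) and by 0.39 ± 0.41 in RNA (edgeR, adjusted p = 0.803). Zbtb16 had Pol2 values of 9.53 and 9.13 in CONS_180 and 5.21 and 2.89 in NADIR_180, a difference of 5.28 ± 0.63, and an RNA difference of 0.67 ± 0.30 (edgeR, adjusted p = 0.426). Zbtb16 RNA was 650, 590 and 540 CPM under constant and 405, 321 and 388 CPM under pulsatile CORT, above vehicle means of 54.1 and 56.0 CPM. Tat (1.27), Adk (adenosine kinase, 2.11), Ass1 (2.08) and Cps1 (1.61) were likewise called in Pol2 only, with RNA differences between 0.34 and 0.77. With the replicate number as a block, the Pol2 calls of Tat and Cps1 were lost (limma, adjusted p = 0.174 and 0.0813) and those of Insig1, Zbtb16, Adk and Ass1 held. The labels name no pairing of libraries across groups. An adjusted p over the threshold does not show that RNA of these genes was equal.

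At Nr1i2 (the xenobiotic receptor PXR), Klf15 (a regulator of amino acid breakdown) and Rell1 the RNA was called and Pol2 was not. Klf15 RNA was 85.2, 90.5 and 84.9 CPM against 50.7, 39.5 and 41.1 CPM (log2 difference 0.98 ± 0.13, edgeR, adjusted p = 0.00149), with a Pol2 difference of 0.72 ± 0.35. Its vehicle means were 26.8 CPM in the constant and 18.7 CPM in the pulsatile pattern, and over vehicle the difference was 0.46 (edgeR, adjusted p = 0.315). Igfbp1 RNA was 251, 173 and 154 CPM against 53.9, 28.4 and 24 CPM (2.42 ± 0.36, edgeR, adjusted p = 0.00440), and that of Upp2 was 882, 536 and 762 CPM against 110, 79.2 and 83.7 CPM (2.99 ± 0.35, edgeR, adjusted p = 0.00133). Over vehicle these differences were 1.94 and 2.00 (edgeR, adjusted p = 0.142 and 0.0951), with vehicle means of 24.3 and 17.3 CPM for Igfbp1 and 70.6 and 35.5 CPM for Upp2. Ppargc1a, the coactivator of gluconeogenic genes, had no GR region nearest to it, while its RNA was 163, 149 and 175 CPM against 58.5, 32.6 and 41.6 CPM (1.86 ± 0.20, edgeR, adjusted p = 0.000685).

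By list, the amino acid enzymes gave 4 higher Pol2 genes of 13 tested and 2 higher RNA genes of 13, the classical targets 3 of 16 and 0 of 14, the lipid genes 3 of 17 and 2 higher and 4 lower of 17, and the glucose genes 0 of 14 and 3 higher of 13. The 3 higher glucose RNAs were Ppargc1a, Irs1 and Irs2, and none of them had a GR region nearest to it. Under the block the Pol2 calls of Tat, Cps1 and Scd were lost and Etnppl was gained (limma, adjusted p = 0.0128). Scd RNA had the opposite sign to its GR and Pol2 differences. It was 19.5, 21.3 and 91.3 CPM under constant against 137, 191 and 760 CPM under pulsatile CORT. The log2 difference was -3.05 (edgeR, adjusted p = 0.0742), and -3.01 with the block (edgeR, adjusted p = 0.00317). The 4 lipid RNAs that were lower under constant CORT were Fasn, Srebf1, Fads1 and Gpam, genes of fatty acid or glycerolipid synthesis, and none of them had a called GR region nearest to it. Cyp2c22, whose start region was called (4.01), had the opposite sign in RNA: 1006, 1203 and 1141 CPM under constant against 2312, 1836 and 1571 CPM under pulsatile CORT (-0.77 ± 0.17, edgeR, adjusted p = 0.0366). Its vehicle means were 1356 and 834 CPM, so that it lay below vehicle under constant and above it under pulsatile CORT.

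A set of 34 called regions differed from the rest at the pulse peak. They were at the floor in both PEAK_140 and both NADIR_180 libraries, and 31 of them were above 0 in both VEH libraries. The median was 3.67 and 3.55 in VEH, 3.50 and 3.41 in CONS_180, and -1.63 and 3.04 in the CONS_140 libraries. These regions were short (median 150 b against 626 b over all regions), 27 carried a VEH peak and 3 a CONS_180 peak, and 3 lay at promoters. The one with the greatest difference, 181111 to 181214 of chromosome 8 at -226839 b from Gucy1a2, had 5.27 and 4.97 in CONS_180, 5.16 and 4.01 in VEH, and between -0.84 and -0.45 in the 4 pulsatile CORT libraries (5.87 ± 1.90, limma, adjusted p = 0.0321). The pulsatile CORT libraries have the lower library numbers given above. Of the libraries with the higher numbers, the first of CONS_140 was below 0 at 29 of the 34 regions and the second above 0 at 27, and the part of the library series was not tested. Without the 34, 1942 regions were higher in CONS_180. Of the 72 regions marked with a NADIR_180 peak, 25 were at the floor in both NADIR_180 libraries, so the mark and the deposited values did not match there.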

How the data were processed

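GR and pSer2 Pol2 values were deposited on a log2 scale. Per the labels and methods, the authors trimmed reads (Trimmomatic 0.36), aligned them to rn6 with bowtie2, removed duplicates, called peaks against input (HOMER 4.9.1), subtracted input and scaled the libraries in HOMER with DESeq2. The table header names scaling to total tags and the methods name tags within binding regions. Deposited RNA values were read counts per Ensembl gene, made by the authors with STAR and featureCounts 1.6.2.

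Here limma 3.58.1 was fitted to the log2 values as deposited, over all 10 libraries of an assay with a variance trend, and edgeR 4.0.16 with TMM (DESeq2 1.42.0 as an alternative) to genes with more than 10 reads over the 12 RNA libraries. Calls needed a Benjamini-Hochberg adjusted p below 0.05 and 1.5-fold. No unmapped columns remained. The scripts were tested on simulated data. The authors' own fold change and p tables were not used. Sites were named by fixed rules of rank (greatest difference, highest level, most called regions, listed genes, genes called in other assays), and members, lists and rules were chosen with earlier results of these data known. By replicate number, deviations of the Pol2 libraries went together (correlation of deviations 0.15 to 0.55 in every pair of CORT groups), and those of the GR or RNA libraries did not. The labels name no pairing, and the source of the Pol2 correlation was not tested. ChIP depth and 2 libraries a group limit precision; intervals cover the spread between libraries only.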

Additional observations from a re-analysis of the deposited data

Results flagged for a closer look

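The RNA response to CORT over the vehicle of the same pattern differed between constant and pulsatile infusion at 2 named genes by edgeR's quasi-likelihood test of the difference. Ppargc1a responded more under constant CORT by 1.95 on the log2 scale (adjusted p = 0.0323), and the response of Cyp2c22, with a GR region called at its start, differed by -1.47 (adjusted p = 0.0416). Mean Cyp2c22 RNA was 1117 CPM with constant CORT and 1356 CPM with its vehicle, and 1906 CPM with pulsatile CORT and 834 CPM with its vehicle, so the responses had opposite signs and the vehicle groups themselves differed.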

How the results depend on the processing

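Among the alternatives tried, the GR scaling moved results most. The 1976 higher regions became 0 with each library centred on its median, 95 with quantile normalization and 0 with centring on VEH-peak regions, and the median difference became -0.39, 0.058 and -0.68. Of 35 called sites named in the text 0, 18 and 0 were called. With regions above 0 in all 4 libraries the count was 446 and at an adjusted p below 0.01 it was 961. Leaving out 1 library gave 948 to 1983 regions, median differences of 1.94 to 2.92 and 30 to 35 named sites. Site differences turned under centring at Cdkn1a (-0.90), Mt2A (-1.48), As3mt (-2.19), RF00002 (-2.67), RF00001 (-0.90), AABR07072667.1 (-0.46), Slc45a1 (-0.10), AABR07004100.2 (-1.42), Per1 (-1.28) and Zfp36 (-0.32). Under quantile normalization they turned at Cdkn1a (-0.070), Mt2A (-0.50), As3mt (-0.96), RF00002 (-1.23) and Per1 (-0.47). With VEH-peak centring they turned at Cdkn1a (-1.18), Mt2A (-1.77), As3mt (-2.47), Got1 (-0.14), RF00002 (-2.95), AABR07054619.1 (-0.049), RF00001 (-1.18), AABR07072667.1 (-0.74), Slc45a1 (-0.39), AABR07004100.2 (-1.70), Per1 (-1.57) and Zfp36 (-0.60). Leaving out 1 library moved RF00002 between -0.054 and 0.48.

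The 28 higher Pol2 genes became 61 with centring and 0 with the 4 libraries alone, and 0 to 19 when 1 library was left out. Without the second NADIR_180 library 63 genes were lower. With 1 library left out, the Pol2 difference of Rell1 ran from -0.31 to 0.76 (-0.097 without the second NADIR_180 library) and that of Cry1 from -0.38 to 0.000507. The 87 higher RNA genes became 135 with DESeq2, 177 without the filter and 1 for responses over vehicle, where Ass1 (-0.16) and Pck1 (-0.092) turned, and 17 to 98 when 1 library was left out. With the replicate block the counts were 2053 for GR, 25 for Pol2 and 108 for RNA. The block, which changed Pol2 calls named above, also brought the GR difference at As3mt past the threshold (adjusted p = 0.0290). The replicate numbers did not pair the GR libraries (correlation of deviations -0.03 to 0.07) or the RNA libraries. The causes were not tested. At 2 libraries a group and 2051977 to 6715803 tags, the values cannot tell an empty region from one with few tags.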
